A study of Danio rerio with 6 samples.

Results

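Injured Müller glia (MG) of mycb mutant fish were compared with MG of uninjured wild-type (Wt) fish, to see which part of the transcriptome that MG reach after injury is reached where Mycb has been mutated. The comparison uses 4 of the 6 RNAseq libraries of the series, 2 from mycb-/- retinas at 2 days post-injury (dpi) and 2 from uninjured Wt retinas, and covers every gene with enough counts. The other 2 libraries, from Wt retinas at the same time after injury (injured Wt), entered the same fit and are given beside them. All fish were adults of both sexes that carried gfap:GFP, in which a glial promoter drives GFP in MG and, after injury, in the progenitors they form. Injured retinas were poked with a needle, retinas were pooled for each condition, and GFP+ cells were sorted by FACS before poly(A) RNA was sequenced. The mycb line carries 1 frameshift deletion in exon 2, made with a pair of CRISPR guides and bred to homozygosity. The series holds no library of uninjured mutant fish, so that in this comparison the effect of the genotype and the effect of the injury cannot be told apart.

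MG are the radial glia that span the retina. In zebrafish they respond to the loss of neurons by switching on reprogramming genes, entering the cell cycle and producing progenitors that regenerate retinal neurons. Myc proteins are bHLH-leucine zipper transcription factors that bind DNA with their partner Max, and are best known for driving ribosome production, protein synthesis, nucleotide supply and cell division. Zebrafish myca and mycb are the orthologs of mammalian Myc, mycla and myclb those of Mycl, and mycn that of Mycn, while mych has no mammalian ortholog.

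The mutation is the single genetic difference that was designed between the groups, so the guides that made it are shown here. They are printed as the DNA of the spacer, with capitals for the bases that the template for in vitro transcription shares with the U6 oligo of the same guide.
mycb gRNA 1: ggGGAGCGGTTTCTCCGCAG
mycb gRNA 2: GGGAAGGGGTCTGACAGGGA
Both are 20 bases long. In gRNA 1 the templates shared 18 bases, and in gRNA 2 all 20, so that the leading gg of gRNA 1 stood in one of its templates only.

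The libraries held 47088844 to 64353562 counts. Replicates differed by more than counting noise in each group, with a chi-square per gene of 49.1 to 125 (49.1 in injured Wt, 111 in uninjured Wt and 125 in the mutant). The first principal component took 46.9% of the variance, and on it the mutant libraries (29.7 and 37.9) lay between uninjured Wt (-130 and -132) and injured Wt (106 and 88.6). On the second component (23.1%), the mutant libraries were at -80.9 and -101 and the Wt libraries at 18.9 to 84.4. Levels are given as CPM, the count scaled to the TMM-adjusted size of its library, in the order of replicates 1 and 2, and are not corrected for gene length, so they compare libraries and not genes. Log2 fold changes are given with their SE. A gene was called higher or lower where the adjusted p-value of edgeR's quasi-likelihood test was at most 0.05 and the log2 fold change was beyond 0.5. Nothing in the labels says whether the 2 libraries of a group came from separate animals, so the p-values measure the spread between these libraries, which may be technical.

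The Myc family was examined first. The identifiers of the count file were paired with names through other tables, and 2 of them, ENSDARG00000007241 and ENSDARG00000045695, carry the name MYC, the human gene whose orthologs are myca and mycb. Which of them is mycb was not given, so the targeted gene cannot be singled out. ENSDARG00000045695 had 32.3 and 35.8 CPM in uninjured Wt, 33.8 and 32.8 in injured Wt and 83.9 and 71.2 in the mutant. It was higher in the mutant than in uninjured Wt (log2 fold change 1.19 ± 0.17, adjusted p = 0.000962) and than in injured Wt (1.22 ± 0.17, adjusted p = 0.00194). ENSDARG00000007241 had 235 and 139 CPM in uninjured Wt, 205 and 157 in injured Wt and 128 and 128 in the mutant, and was called in no comparison (-0.55 ± 0.25 in the mutant against uninjured Wt, adjusted p = 0.136). Neither identifier was called between injured and uninjured Wt (-0.05 for ENSDARG00000007241 and -0.03 for ENSDARG00000045695). The study reports, from other data sets and assays, that mycb is induced in MG by injury. Reads outside the deletion are still counted, so the level of neither identifier checks the mutant label.

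The other Myc genes fell into different patterns. The gene mych, the member without a mammalian ortholog, had 53.02 and 30.35 CPM in uninjured Wt, 92.9 and 92.0 in the mutant and 296 and 205 in injured Wt. It was called in all 3 comparisons and stood in the mutant between its levels in uninjured and injured Wt (1.15 ± 0.27 against uninjured Wt, adjusted p = 0.0114, and -1.44 ± 0.27 against injured Wt, adjusted p = 0.00568). The identifier named MYCL (ENSDARG00000034956) had 62.2 and 77.2 CPM in uninjured Wt, 87.3 and 72.0 in injured Wt and 286 and 210 in the mutant, so that the mutant libraries lay above all Wt libraries (1.83 ± 0.21 against uninjured Wt, adjusted p = 0.000307). The same held for mycn, at 9.87 and 11.8, 9.40 and 10.8, and 23.8 and 16.3 CPM in the same order (0.89 ± 0.25, adjusted p = 0.0283). For mycla the 3 groups overlapped, from 18.3 to 23.3 CPM.

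**Figure D1:**
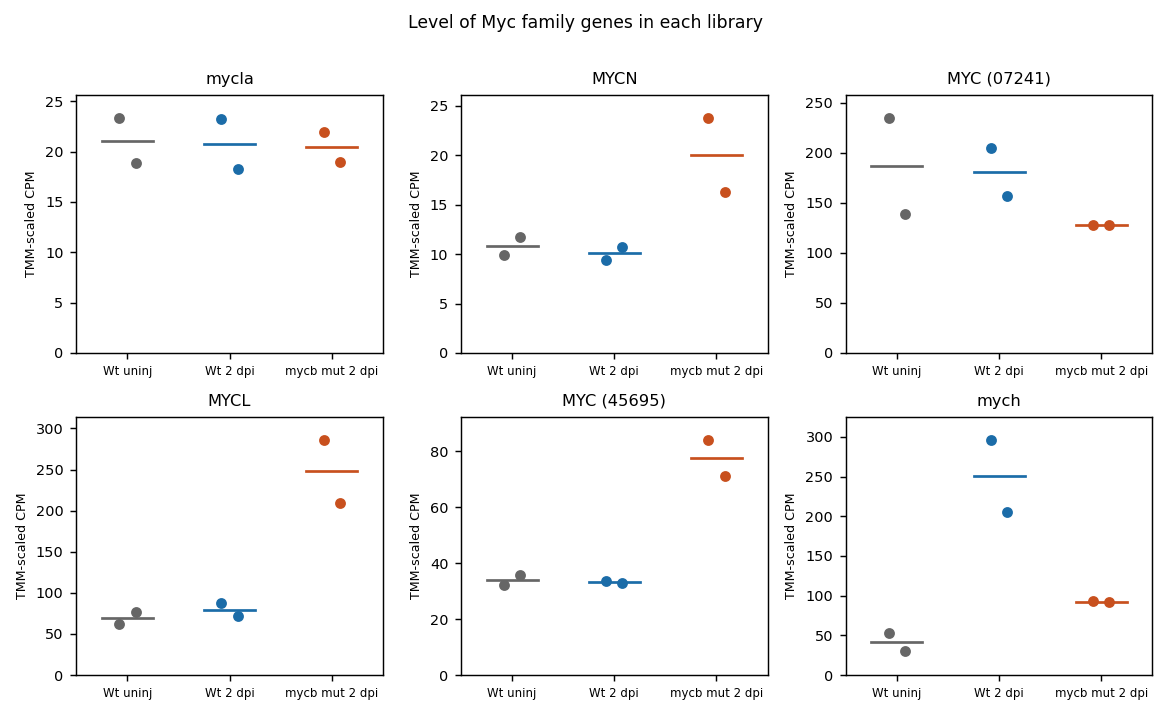
Level of 6 Myc family genes in each library, as TMM-scaled CPM on linear axes that start at 0, with 1 point per library and a bar at the mean of each group (n = 2). The mutant libraries lie highest for MYCL, MYCN and ENSDARG00000045695, one of the MYC identifiers, while mych lies between uninjured and injured Wt.

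In the injured mutant 2477 genes were higher than in uninjured Wt and 2734 lower, together 25.6% of the 20329 tested (12.2% higher and 13.4% lower). These shares of all genes are the background for the counts of each list below. Of the genes called, 1638 were higher and 2130 lower by more than 1 on the log2 scale. Beyond 3, the counts were 533 higher and 86 lower, and beyond 5 they were 197 and 27, including genes at 0 in every library of one group, whose fitted values are no bound. The large changes were thus mostly increases, although the median log2 fold change was 1.3 for genes called higher and -1.41 for those called lower. For comparison, 3904 genes were higher and 3535 lower in injured Wt than in uninjured Wt (36.6% of all genes, 19.2% higher and 17.4% lower), and 1668 were higher and 2483 lower in the mutant than in injured Wt (20.4%, with 8.21% higher and 12.2% lower). These comparisons share libraries with each other, so their values are set side by side and no overlap between them is given. Without mutant replicate 2, the number of genes lower in the mutant than in uninjured Wt dropped to 1668.

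**Figure D2:**
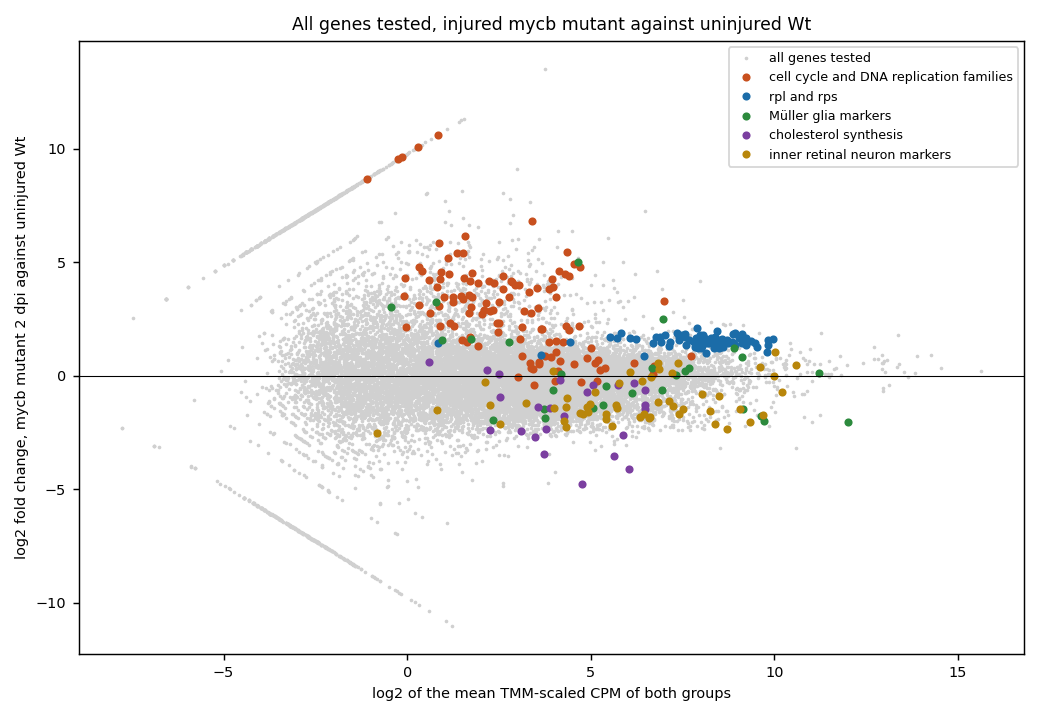
Log2 fold change of the injured mycb mutant against uninjured Wt (vertical) against the log2 of the mean TMM-scaled CPM of both groups (horizontal), with 1 point per gene tested. Cell cycle families lie mostly above 0 and cholesterol synthesis and inner retinal neuron markers mostly below, and the straight bands at top and bottom are genes at 0 in every library of one group, whose fitted fold change depends on the prior count and is not a bound.

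Among the 15 largest increases, lin28a stood first by its fitted value. The gene encodes an RNA-binding protein that blocks let-7 miRNAs. It had 0 and 0 CPM in uninjured Wt, 27.0 and 26.5 in the mutant and 63.6 and 74.7 in injured Wt. Against a floor of 3 counts per library (0.0529 CPM), lin28a was at least 506-fold higher in the injured mutant than in uninjured Wt, and it was lower in the mutant than in injured Wt (-1.37 ± 0.19, edgeR adjusted p = 0.0023). The AAA+ ATPase gene trip13, which takes part in the spindle checkpoint, was also at 0 in both uninjured libraries, at 5.66 and 4.92 CPM in the mutant (at least 100-fold higher) and at 23.3 and 26.3 in injured Wt. The third gene at 0 in both, si:ch211-153b23.5, had 4.09 and 7.54 CPM in the mutant (at least 110-fold higher), against 4.32 and 3.85 in injured Wt.

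Further down the same ranking stood genes of secreted factors and their receptors. The gene met, for the receptor of hepatocyte growth factor, had 0 and 0.092 CPM in uninjured Wt and 12.6 and 11.9 in the mutant (8.04 ± 0.53). For kng1, named after the precursor of bradykinin, the levels were 0 and 0.0552 CPM in uninjured Wt and 16.1 and 15.6 in the mutant (9.11 ± 0.48). The secreted gelatinase gene mmp9 had 1.40 and 0.865 CPM in uninjured Wt and 218 and 132 in the mutant (7.27 ± 0.35, adjusted p = 5.6e-06), against 688 and 625 in injured Wt. In all 3 the mutant was called lower than injured Wt. The others among the 15 largest increases were zgc:112285, mmp13b, clcf1, adamtsl7, zgc:194627, cdca7a, lepb, haus5 and zgc:101699, with log2 fold changes from 6.55 to 8.13. A pair of these, the collagenase gene mmp13b and zgc:101699, lay above injured Wt: mmp13b had 0.118 and 0 CPM in uninjured Wt, 3.23 and 5.52 in injured Wt and 16.6 and 11.3 in the mutant, and zgc:101699 had 0.152 and 0, 1.23 and 1.83, and 7.71 and 7.32. Both differences from injured Wt were called (1.68 ± 0.51 for mmp13b and 2.3 ± 0.71 for zgc:101699). Among identifiers without a name, ENSDARG00000101479 and ENSDARG00000117407 were higher by the most (6.37 ± 0.55 and 5.68 ± 0.59).

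The largest decreases included genes that changed less, or were not called, with injury in Wt. The cilia gene ccdc39 had 15.3 and 8.32 CPM in uninjured Wt, 4.85 and 4.55 in injured Wt and 0.445 and 0.361 in the mutant (-4.87 ± 0.44, adjusted p = 0.00011, with -1.33 ± 0.36 in injured Wt against uninjured Wt and -3.53 ± 0.43 in the mutant against injured Wt). The sulfotransferase gene sult1st1 had 26.8 and 27.9 CPM in uninjured Wt and 1.31 and 0.745 in the mutant (-4.72 ± 0.42), while its levels in injured Wt, 11.0 and 22.9, were not called against uninjured Wt. Like it, opn8c, a non-visual opsin, and pear1 were called lower in the mutant against both Wt groups and were not called with injury in Wt. Another set was low in both injured groups: cyp51 and msmo1, enzymes of sterol synthesis, and ldlra, the receptor of low density lipoprotein, at 30.7 and 17.4 CPM in uninjured Wt, 6.79 and 5.76 in injured Wt and 2.16 and 2.21 in the mutant (-3.46 ± 0.33). The others among the 15 were znf1179, si:ch211-214b16.4, si:ch211-66e2.5, cacna1eb, si:ch211-67n3.9, slc4a11, rxfp3.3b and UCMA, from -4.25 to -3.37. Identifiers that share a name with another were left out of both rankings. By their size alone, an SQLE and a MATN3 identifier (-4.77 and -4.60) would stand among the largest decreases and a NIBAN1 identifier, at 0 in both uninjured libraries, among the largest increases. The call of the calcium channel gene cacna1eb was lost without uninjured Wt replicate 1 (adjusted p = 0.053) and without mutant replicate 2 (adjusted p = 0.072). Among identifiers without a name, ENSDARG00000098360 and ENSDARG00000099775 were lower by the most (-4.72 ± 0.59 and -3.13 ± 0.49).

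Markers of MG and of other retinal cells were read in every library, since the sort can let other cells or their RNA through. In such bulk samples, fewer cells of a type and less RNA per cell cannot be told apart. Photoreceptor RNA was abundant throughout: the summed level of 33 cone markers was 69130 and 91640 CPM in uninjured Wt, 44560 and 47580 in injured Wt and 109900 and 109000 in the mutant. The 35 rod markers summed to 16410 and 26890, 4730 and 4301, and 17890 and 18500 CPM in the same order. Both lists were thus high in uninjured Wt and the mutant and low in injured Wt. The 29 identifiers of MG markers summed to 15950 and 12330 CPM in uninjured Wt, 23280 and 21720 in injured Wt and 6614 and 8848 in the mutant, so that the sum was lowest in the mutant libraries. Such a sum is set by the most abundant members. Of the 28 MG markers tested, 8 were higher and 11 lower in the mutant than in uninjured Wt, with a median log2 fold change of 0.05. Marker genes of every cell type except rods and cones had members at 0 counts in some library, at most 6 of a list. Those at 0 in both mutant libraries and tested were 2 of the MFAP4 identifiers and mhc2dab, all in the microglia list.

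Against uninjured Wt, 3 of 35 rod markers were higher and 5 lower in the mutant, near the 12.2% and 13.4% of all genes, with a median log2 fold change of -0.31 (range -0.95 to 0.91). Rhodopsin, rho, had 6606 and 12260 CPM in uninjured Wt, 5627 and 7187 in the mutant and 919 and 525 in injured Wt. It was not called between the mutant and uninjured Wt (-0.56 ± 0.33, adjusted p = 0.26), nor was rod transducin, gnat1 (-0.79 ± 0.29, adjusted p = 0.073). In injured Wt, 33 of the 35 were lower than in uninjured Wt and none was higher (median -2.5), and 33 were higher in the mutant than in injured Wt. The count of lower rod markers was 8 with library size only or a mean count of 300, 10 with DESeq2, 12 with no filter and 0 beyond a log2 fold change of 1. It was 11 without uninjured Wt replicate 1, 0 without uninjured Wt replicate 2, 1 without mutant replicate 1 and 0 without mutant replicate 2. The count of higher ones was 0 without uninjured Wt replicate 1, 5 without uninjured Wt replicate 2 and 1 without mutant replicate 1 or either Wt 2 dpi replicate, and 1 in a fit of the 4 compared libraries.

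Cone markers were higher in part. Of 33 tested, 11 were higher and 2 lower than in uninjured Wt (median 0.39), against 0 higher and 21 lower in injured Wt (median -0.83). The shares of all genes in the mutant were 12.2% higher and 13.4% lower. Among the members called higher, the green opsin genes opn1mw2 and opn1mw3 changed most. For opn1mw2 the levels were 2731 and 5148 CPM in uninjured Wt, 1817 and 1896 in injured Wt and 9845 and 9227 in the mutant (1.27 ± 0.27, adjusted p = 0.0068). For opn1mw3 they were 297 and 358, 193 and 136, and 1475 and 955 CPM (1.89 ± 0.26). For both, the groups did not overlap, with the mutant highest. These opsin genes are close copies of each other, and reads could be split between them in counting. Cone transducin, gnat2, at 5790 and 8116 CPM in uninjured Wt and 9361 and 7913 in the mutant, was not called (0.31 ± 0.21). The count of higher cone markers was 6 in a fit of the 4 compared libraries, 3 beyond a log2 fold change of 1, 7 without uninjured Wt replicate 1, 21 without uninjured Wt replicate 2 and 7 without mutant replicate 1, and that of lower ones was 1 without uninjured Wt replicate 2 or either mutant replicate.

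**Figure D3:**
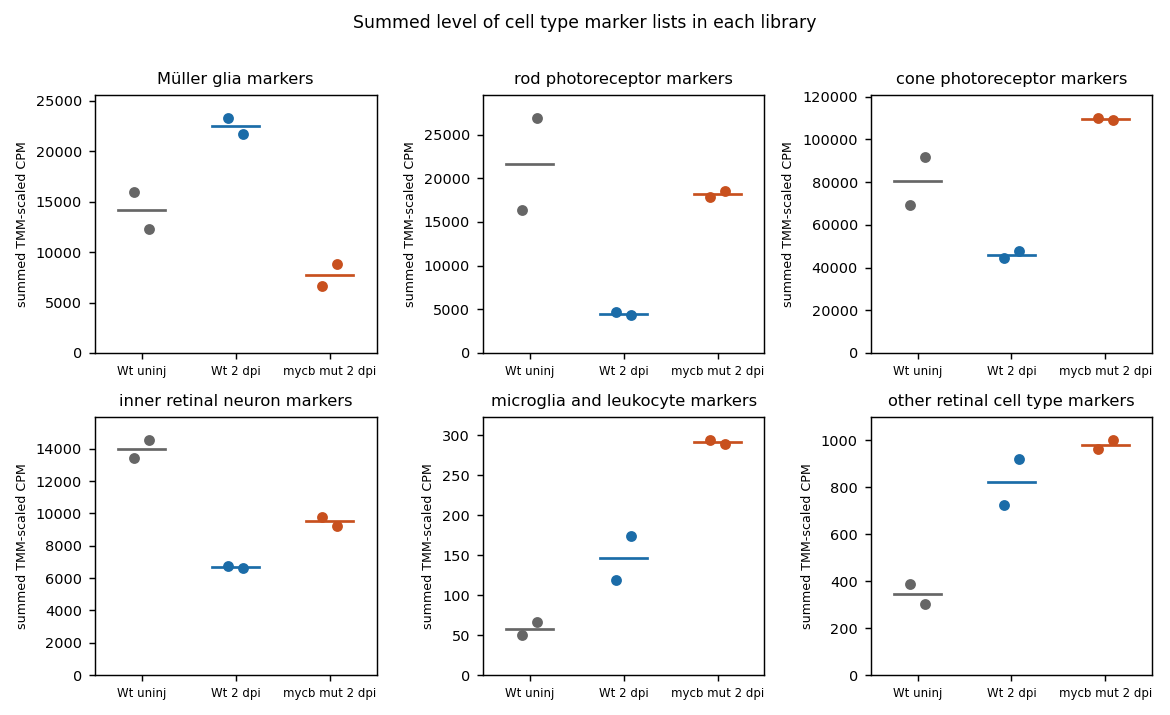
Summed TMM-scaled CPM of 6 lists of cell type markers in each library, on linear axes that start at 0, with 1 point per library and a bar at each group mean (n = 2). The sum of Müller glia markers, set by its most abundant members, is lowest in the mutant (6614 and 8848 CPM), where the sum of cone markers is highest (109900 and 109000 CPM).

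Inner retinal neuron markers were lower in part in the mutant and mostly lower in injured Wt. Their summed level over 53 markers was 13440 and 14530 CPM in uninjured Wt, 6722 and 6621 in injured Wt and 9761 and 9251 in the mutant. Of 53 tested, 32 were lower and 1 was higher in the mutant than in uninjured Wt (median -1.37), beside 13.4% and 12.2% of all genes. In injured Wt, 47 were lower and 0 higher (median -1.19). The other 20 were not called in the mutant, among them scg3 (1086 and 1469 CPM in uninjured Wt, 1994 and 1585 in the mutant, 0.49 ± 0.20) and cpe (-0.04 ± 0.17). Between mutant and injured Wt, 10 members were higher and 7 lower, beside 8.21% and 12.2% of all genes, so that the lower share was near that of all genes. The GABA-synthesizing enzyme gene gad2 had 708 and 679 CPM in uninjured Wt, 245 and 207 in injured Wt and 110 and 166 in the mutant (-2.33 ± 0.22, adjusted p = 0.00014). The NMDA receptor subunit gene grin1a fell alike, from 584 and 505 CPM to 126 and 120 in the mutant and 147 and 153 in injured Wt, where its difference between injured groups was not called (-0.28). The member called higher was neurod1, a bHLH factor of photoreceptors and amacrine cells, at 547 and 792 CPM in uninjured Wt, 312 and 346 in injured Wt and 1510 and 1260 in the mutant (1.05, adjusted p = 0.0055). Without uninjured Wt replicate 2 the count of higher members was 6, and without mutant replicate 2 it was 3.

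Some markers of immune and pigmented cells were higher in both injured groups. Of 28 identifiers for microglia and leukocyte markers, 25 were tested, and 11 were higher and 1 lower in the mutant than in uninjured Wt (median 1.79), against 10 and 1 in injured Wt. Over all genes, 12.2% were higher and 13.4% lower in the mutant. The list summed to 50.2 and 65.9 CPM in uninjured Wt, 119 and 174 in injured Wt and 294 and 289 in the mutant. In this list 13 members were not called, among them cd74a (-0.17 ± 0.50) and cd74b (1.06 ± 0.44). The heme oxygenase gene hmox1a had 1.45 and 1.23 CPM in uninjured Wt and 49.4 and 49.0 in the mutant (5.19 ± 0.26), and the complement gene c1qc had 0.286 and 0.313 CPM and 4.34 and 5.44 (4.02 ± 0.51). The class II gene mhc2dab went the other way, from 3.86 and 2.13 CPM in uninjured Wt to 0 and 0 in the mutant. Against a floor of 3 counts per library, mhc2dab was at least 45.6-fold lower in the mutant. In injured Wt it had 2.38 and 0.923 CPM and was not called against uninjured Wt (-0.86 ± 0.78). The mutant was called lower than injured Wt as well. The pigmented cell genes pmela, pmelb, dct and 2 identifiers named TYRP1 were all higher, pmelb at 7.04 and 5.69 CPM in uninjured Wt, 31.6 and 64.8 in injured Wt and 153 and 126 in the mutant (4.46, adjusted p = 5e-05). Together with vessel, lens, oligodendrocyte and other markers these summed to 387 and 302 CPM in uninjured Wt, 723 and 920 in injured Wt and 963 and 1000 in the mutant. Of the 24 tested, 12 were higher and 7 lower, the latter including sox10, kdrl and pdgfrb. Vessel markers went both ways: kdrl was lower, while fli1 had 0 and 0 CPM in uninjured Wt, 1.21 and 2.39 in injured Wt and 3.33 and 1.94 in the mutant. Against the floor of 3 counts per library, fli1 was at least 49.8-fold higher in the mutant. Fewer members were lower without uninjured Wt replicate 2 or mutant replicate 2. The part of any of these cells in the results below was not tested.

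Reprogramming factors split in the mutant. Of 32 identifiers tested, 15 were higher and 6 lower than in uninjured Wt (median 0.06, against a median of 0.02 over all genes, of which 12.2% were higher and 13.4% lower). In injured Wt the counts were 14 and 5. Among the higher genes was ascl1a, the proneural bHLH factor that MG need to reprogram, at 4.03 and 3.72 CPM in uninjured Wt, 56.2 and 65.2 in the mutant and 246 and 230 in injured Wt (3.97 ± 0.19 against uninjured Wt, adjusted p = 5.6e-06, and -1.97 ± 0.17 against injured Wt, adjusted p = 0.00091). All 3 groups were apart, and the mutant level was nearer to uninjured Wt on the linear scale and nearer to injured Wt on the log2 scale. The same order of groups was seen for olig2, zic2b, runx1 and its partner cbfb, all transcription factors or their subunits, with log2 fold changes of 1.62 to 2.52 in the mutant and 2.90 to 3.96 in injured Wt.

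A second set was not called between the mutant and uninjured Wt. The stem cell factor gene sox2 had 99.1 and 72.2 CPM in uninjured Wt, 53.8 and 81.4 in the mutant and 262 and 202 in injured Wt, and was called in Wt (1.44 ± 0.25) and not in the mutant (-0.34 ± 0.25, adjusted p = 0.35). The eye field gene six3b had 153 and 147, 142 and 174, and 458 and 460 CPM in the same order (0.07 ± 0.17 in the mutant). For both, the difference between mutant and injured Wt was itself called (-1.78 ± 0.25 and -1.54 ± 0.17). Below the uninjured level were lhx2b and yap1, each lower in the mutant than in both Wt groups: yap1, a coactivator of the Hippo pathway, had 76.0 and 54.8 CPM in uninjured Wt, 34.8 and 43.5 in the mutant and 110 and 98.7 in injured Wt (-0.74 ± 0.21 and -1.42 ± 0.21).

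A further set was above both Wt groups. ENSDARG00000095743, one of the identifiers named SOX11, had 36.3 and 38.8 CPM in uninjured Wt, 140 and 153 in injured Wt and 191 and 332 in the mutant (2.80 ± 0.26 against uninjured Wt and 0.84 ± 0.24 against injured Wt). The neurogenic gene atoh7, which marks progenitors of early-born neurons, had 2.39 and 3.11, 0.667 and 1.86, and 16.8 and 8.11 CPM in that order. Its difference of 3.31 from injured Wt was called, and injury in Wt left it uncalled. One identifier named INSM1, a zinc finger factor of newborn neurons, followed the same order at 8.88 and 16.2, 11.7 and 13.4, and 57.3 and 36.0 CPM. The count of lower reprogramming factors was 3 without mutant replicate 2.

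Several genes of cytokine ligands and receptors were higher in the mutant than in uninjured Wt and stood below injured Wt. The gene crlf1a, which encodes a soluble receptor that acts as a ligand together with Clcf1, had 5.64 and 3.92 CPM in uninjured Wt, 67.2 and 83.5 in the mutant and 358 and 314 in injured Wt (3.98 ± 0.24 against uninjured Wt, adjusted p = 1.4e-05). Its partner clcf1 had 0.0505 and 0.147, 18.2 and 22.0, and 60.1 and 55.1 CPM (7.66 ± 0.37). Leptin, lepb, had 0.253 and 0, 11.8 and 15.9, and 66.5 and 52.7 CPM (6.70 ± 0.61), and its receptor lepr had 2.49 and 1.56, 29.1 and 33.7, and 125 and 99.4. In these 4 genes the 3 groups did not overlap, and the mutant was called lower than injured Wt by 1.52 to 2.16 on the log2 scale. The shared receptor subunit gene il6st and the transcription factor gene stat3 were higher by 0.69 and 0.68 than in uninjured Wt (-0.63, called, and -0.39, not called, against injured Wt), and the kinase gene jak1, at 159 and 138 CPM in uninjured Wt and 175 and 235 in the mutant, was not called (0.46 ± 0.19).

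Over all 57 tested genes of cytokine and growth factor signalling, 18 were higher and 6 lower in the mutant than in uninjured Wt (median 0.38), against 33 and 8 in injured Wt (median 1.02). Shares of all genes were 12.2% and 13.4% in the mutant and 19.2% and 17.4% in injured Wt. The EGF receptor ligand hbegfa had 3.40 and 3.28 CPM in uninjured Wt. It had 35.2 and 43.8 in the mutant, below the 81.1 and 47.8 of injured Wt, and this difference was not called (-0.71). The Wnt inhibitor dkk1a stood further below injured Wt, at 0.118 and 0.129, 2.92 and 3.03, and 18.8 and 18.7 CPM in the same order (-2.65 against injured Wt). Genes called lower in the mutant included tgfb3, a TGFβ ligand, with 259 and 170 CPM in uninjured Wt, 40.0 and 51.2 in the mutant and 179 and 144 in injured Wt, and boc, a coreceptor of hedgehog. The BMP target id1 rose with injury in Wt, from 157 and 139 CPM to 326 and 345, and stood at 105 and 87.5 in the mutant, lower than in uninjured Wt (-0.62 ± 0.17, adjusted p = 0.025). That call on id1 was lost without either uninjured Wt replicate and without mutant replicate 2 (adjusted p = 0.12, 0.097 and 0.33), while the count of lower members was 3 without uninjured Wt replicate 1 or mutant replicate 2.

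In the Notch pathway, where Delta ligands on one cell activate receptors on the next and switch on her genes, both ligands and targets differed from gene to gene. Of 26 tested members, 7 were higher and 2 lower in the mutant than in uninjured Wt (median 0.57), against 16 and 2 in injured Wt (median 1.66). All genes gave 12.2% higher and 13.4% lower in the mutant, and 19.2% and 17.4% in injured Wt. The ligand gene dlc had 0.775 and 1.97 CPM in uninjured Wt, 23.8 and 12.9 in the mutant and 39.6 and 39.3 in injured Wt (3.75 ± 0.43), and dlb had 1.33 and 1.93, 13.0 and 7.34, and 8.19 and 13.1 (2.64 ± 0.40). For dlc both mutant libraries lay below injured Wt (-1.10 ± 0.38, adjusted p = 0.067, not called), while for dlb those groups overlapped, and the ligand gene dld stood at 148 to 166 CPM in all 6 libraries. Among the her targets, her4.4 was at 9.14 and 7.27 CPM in uninjured Wt, 108 and 56.3 in the mutant and 102 and 46.2 in injured Wt. In contrast, her4.3 had 1.03 and 4.31, 5.63 and 4.86, and 46.7 and 72.7 CPM, and her9 had 23.8 and 17.7, 38.1 and 48.0, and 162 and 141. For her4.3 and her9 the mutant was called lower than injured Wt (-3.51 and -1.81). The her4 and her15 genes are near-identical copies, and reads could be split between them in counting. Without mutant replicate 2, the count of higher members was 12.

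**Figure D4:**
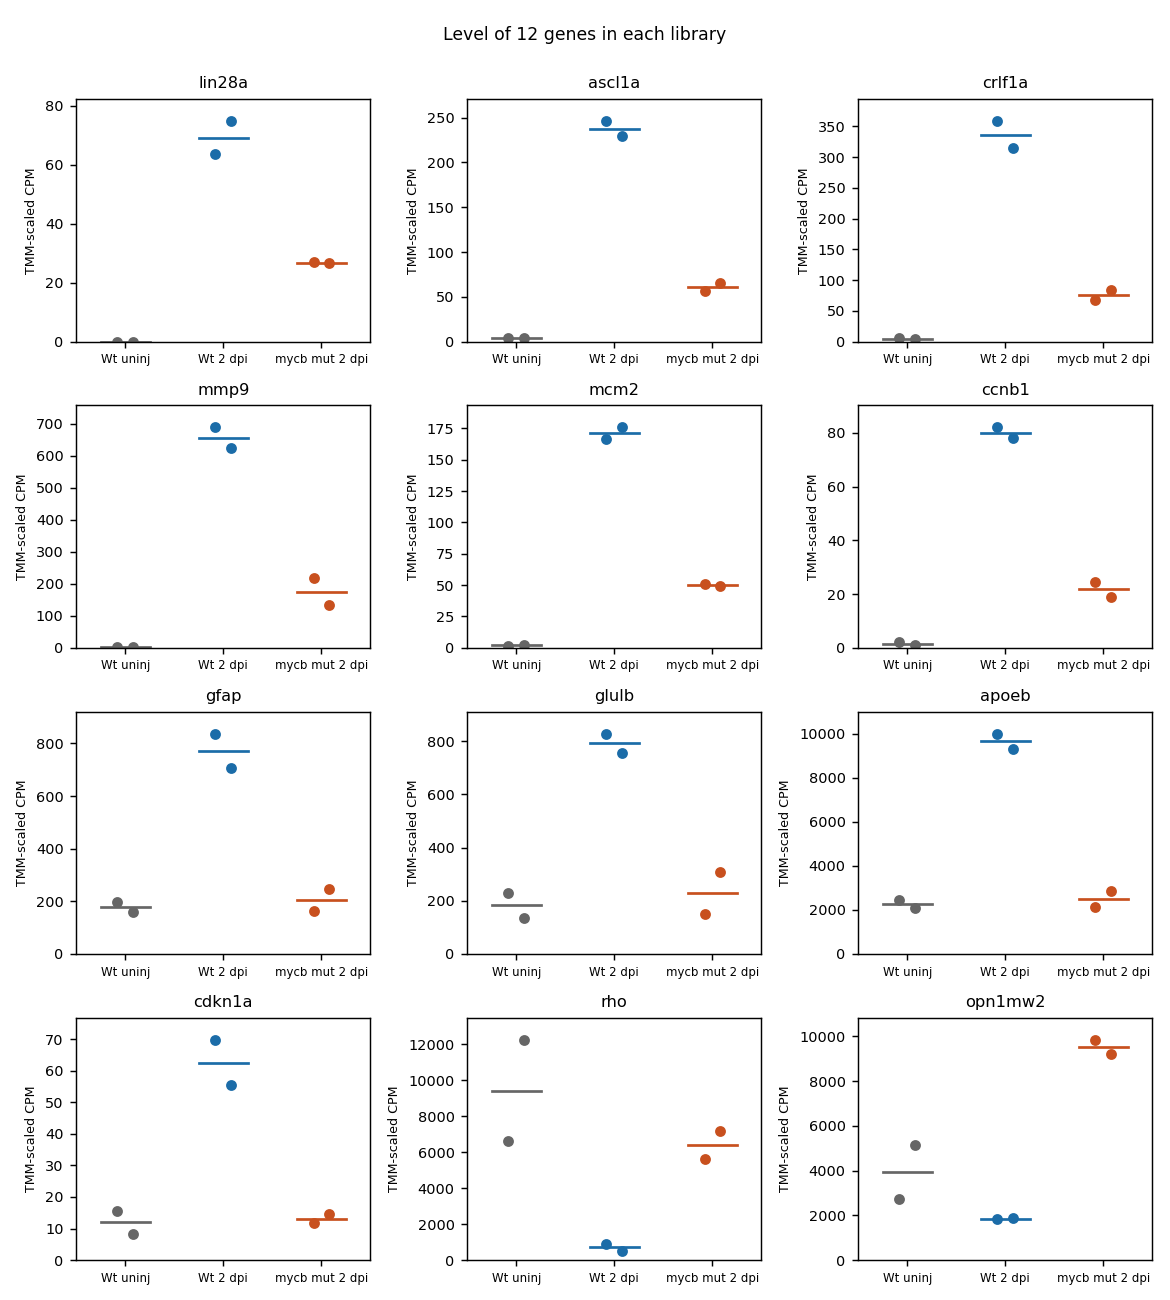
Level of 12 genes in each library, as TMM-scaled CPM on linear axes that start at 0, with 1 point per library and a bar at each group mean (n = 2). For lin28a, ascl1a, crlf1a, mmp9, mcm2 and ccnb1 the mutant lies between uninjured and injured Wt, and for gfap, glulb, apoeb and cdkn1a its libraries overlap those of uninjured Wt.

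Cell cycle genes were higher in the injured mutant than in uninjured Wt, mostly at levels between the Wt groups. The families used here come from the study's own tables, which the study compiled on these samples, so their direction is not independent evidence. They can also share members, such as mcm10 in mcm and DNA replication. Against uninjured Wt, 9 of 11 mcm genes, 12 of 14 cyclin (ccn) genes, 14 of 17 DNA replication genes, 10 of 12 DNA polymerase genes, 11 of 17 cell division cycle genes, 15 of 16 kinetochore genes, 15 of 15 cenp genes, 6 of 6 ncap genes and 6 of 8 mitotic genes were higher in the mutant, and none was lower. The same families in injured Wt gave 10, 12, 17, 11, 15, 16, 15, 6 and 7 higher genes. Median log2 fold changes ran from 1.58 (DNA replication) to 4.4 (mcm) in the mutant and from 2.46 to 6.47 in injured Wt. No member of these families was higher in the mutant than in injured Wt, and 5 to 13 members of each were lower.

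Called genes from several steps showed the same order. The replicative helicase genes mcm2 and mcm5 had 1.62 and 2.02 and 2.12 and 0.902 CPM in uninjured Wt, 51.0 and 49.1 and 32.4 and 26.3 in the mutant, and 166 and 176 and 145 and 135 in injured Wt (4.78 ± 0.20 and 4.27 ± 0.34 against uninjured Wt). The replication clamp gene pcna had 35.1 and 42.9, 161 and 170, and 537 and 507 CPM (2.08 ± 0.18, adjusted p = 8.1e-05). Cyclin B, ccnb1, which with Cdk1 drives entry into mitosis, had 1.99 and 1.03, 24.4 and 19.1, and 82.1 and 78.2 CPM (3.84 ± 0.30), and cdk1 itself had 0.0842 and 0.423, 20.3 and 11.8, and 70.2 and 74.0 (6.0 ± 0.50). In each of these 5 genes the groups were apart and the mutant was called lower than injured Wt, by 1.66 to 2.25. The proliferation marker mki67 was nearer to injured Wt, at 5.30 and 4.75 CPM in uninjured Wt, 119 and 67.3 in the mutant and 180 and 150 in injured Wt (4.21 ± 0.29 and -0.82 ± 0.25). Members at 0 counts in both uninjured libraries were mcm10, mcm8, ccndx, ccnj and cenpo, which were at least 17.6 to 67.4-fold higher in the mutant, and with these genes at their bounds the medians of their families were the same. The call of ccnj was lost without either uninjured Wt replicate or mutant replicate 1 (adjusted p = 0.082, 0.062 and 0.084). Not every member followed the order between the Wt groups. Thus mcmbp, polh and mad1l1 were not called in the mutant against uninjured Wt (-0.25 ± 0.19, -0.41 ± 0.24 and -0.08 ± 0.34). Each was called lower than in injured Wt (-1.01, -1.14 and -1.35).

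Of 33 tested genes of dNTP supply and proliferation, 31 were higher and 1 lower in the mutant (median 2.67), against 32 and 0 in injured Wt (median 3.93). Thymidylate synthase, tyms, had 0.606 and 0.221 CPM in uninjured Wt, 24.8 and 18.5 in the mutant and 77.7 and 94.9 in injured Wt (5.68 ± 0.38). The small subunit of ribonucleotide reductase, rrm2, was the member with the largest drop below injured Wt, at 3.47 and 6.96, 46.8 and 32.8, and 282 and 304 CPM (2.93 against uninjured Wt and -2.88 against injured Wt). Its large subunit, rrm1, was at 71.2 and 78.2 CPM in the mutant and 214 and 218 in injured Wt (2.49 ± 0.19 against uninjured Wt and -1.53 ± 0.19 against injured Wt). The mitotic inhibitor kinase gene wee1 was the member that stayed uncalled, at 26.0 and 15.8 CPM in uninjured Wt, 21.8 and 19.7 in the mutant and 51.1 and 52.3 in injured Wt. The member called lower was 1 of 2 identifiers named STMN1, a regulator of microtubules. The cdk family also holds kinases outside the cell cycle and CDK inhibitors, such as cdkn1ca, which is in the next list too and was higher. Of the 28 genes of this family, 7 were higher and 7 lower, beside 12.2% and 13.4% of all genes. Fewer were higher without uninjured Wt replicate 1, and fewer lower without uninjured Wt replicate 2 or mutant replicate 2.

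Among genes of cell cycle inhibition and apoptosis, fewer were called in the mutant than in injured Wt, each against uninjured Wt. Of 27 tested, 4 were higher and 5 lower than in uninjured Wt (median -0.23), near the shares of all genes, against 9 and 8 in injured Wt. The CDK inhibitor gene cdkn1a (p21) had 15.6 and 8.28 CPM in uninjured Wt, 11.8 and 14.5 in the mutant and 69.8 and 55.3 in injured Wt, so that it was not called against uninjured Wt (0.14 ± 0.29, adjusted p = 0.785) and was lower than in injured Wt (-2.25 ± 0.30, adjusted p = 0.0015). The antiproliferative gene btg2 fell in both injured groups, from 880 and 428 CPM to 213 and 178 in the mutant (-1.74 ± 0.33) and 317 and 202 in injured Wt. The count of higher members was 2 without uninjured Wt replicate 1 or mutant replicate 1, and that of lower members was 2 or 3 without either uninjured Wt replicate or mutant replicate 2.

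Structural ribosomal protein genes were higher in the mutant almost without exception. All 49 rpl genes and 34 of 35 rps genes were higher than in uninjured Wt, with medians of 1.47 (range 0.89 to 2.11) and 1.61 (range 1.004 to 1.96), against medians of 2.00 and 2.13 in injured Wt. The large subunit gene rpl11 had 194 and 222 CPM in uninjured Wt, 625 and 919 in the mutant and 1221 and 1054 in injured Wt (1.89 ± 0.22, adjusted p = 0.0003), and the small subunit gene rps24 had 119 and 164, 515 and 581, and 700 and 640 CPM (1.96 ± 0.20). The remaining rps gene, rps27l, was at 0.977 and 0.957 CPM in uninjured Wt and 2.16 and 3.05 in the mutant (1.43 ± 0.51, adjusted p = 0.066). Between mutant and injured Wt, 16 rpl and 11 rps genes were lower and none was higher, rpl22l1 among them (-1.0 ± 0.19). These families, like the others of ribosome biogenesis and translation below, were also chosen by the study on these samples.

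Factors that build ribosomes were higher in part, by less than 1 on the log2 scale in the median. Of 71 genes of 40s biogenesis 47 were higher (median 0.80), of 62 genes of 60s biogenesis 34 (median 0.76), of 27 nucleolar genes 17 (median 0.88) and of 21 ddx helicase genes 12 (median 0.70). None was lower, and in injured Wt the counts were 66, 62, 25 and 20. These families share members: npm1a is in 40s and 60s biogenesis, ddx52 in 40s biogenesis and ddx, and gnl3 in 60s biogenesis and nucleolus. Their counts are thus not independent of each other. The nucleolar chaperone gene npm1a had 18.5 and 24.8 CPM in uninjured Wt, 75.4 and 82.7 in the mutant and 223 and 195 in injured Wt (1.87 ± 0.20 and -1.40 ± 0.19), and the nucleolar GTPase gene gnl3 had 13.4 and 19.2, 49.9 and 55.3, and 130 and 112 CPM (1.69 ± 0.21). Both lay between the Wt groups with no overlap. In the 60s family, bccip (52.4 and 53.5, then 55.4 and 63.4 CPM in the mutant) was not called. Without uninjured Wt replicate 1 the counts were 23 for 40s biogenesis, 22 for 60s biogenesis and 4 for ddx.

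Translation factors and tRNA synthetases followed. Of 62 eif and eef genes 38 were higher (median 0.76) and of 27 aminoacyl-tRNA synthetase (ars) genes 14 (median 0.71), with none lower, against 57 and 26 in injured Wt. The elongation factor gene eef1a1l1 had 964 and 1156 CPM in uninjured Wt, 3551 and 4217 in the mutant and 6548 and 6489 in injured Wt (1.87 ± 0.19, adjusted p = 0.00018). The glutaminyl-tRNA synthetase gene qars1 had 14.0 and 19.4, 50.2 and 57.7, and 87.7 and 73.2 CPM (1.69 ± 0.21). In both the mutant lay between the Wt groups, while the difference between injured groups was called for eef1a1l1 alone of the pair (-0.75 ± 0.19 against -0.58 ± 0.21). Mitochondrial ribosome genes were seldom called: 10 of 41 mrpl genes and 4 of 24 mrps genes were higher (medians 0.47 and 0.41), near the 12.2% of all genes for mrps. Without uninjured Wt replicate 1 the counts were 24 for eif and eef, 9 for ars, 0 for mrpl and 1 for mrps. The mrps count was 10 without uninjured Wt replicate 2 and 2 without either mutant replicate, while the mrpl count was 6 without either mutant replicate, 4 without Wt 2 dpi replicate 1 and 5 without Wt 2 dpi replicate 2.

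Genes of protein turnover and export differed in how far the mutant stood above uninjured Wt. Of 41 proteasome genes, 28 were higher and 0 lower than in uninjured Wt (median 0.83), against 36 and 2 in injured Wt (median 1.44). The core subunit gene psmb2 had 36.9 and 40.5 CPM in uninjured Wt, 79.9 and 118 in the mutant and 125 and 131 in injured Wt (1.36 ± 0.21), and was not called between the injured groups. Of 33 secretory pathway genes, 13 were higher and 0 lower (median 0.51), against 31 and 0 in injured Wt (median 1.47), and 24 were lower in the mutant than in injured Wt. The ER chaperone partner gene dnajb11 was near injured Wt (16.8 and 20.5 CPM in uninjured Wt, 46.3 and 71.3 in the mutant, 77.3 and 72.4 in injured Wt), and the ER chaperone gene hspa5 (BiP), at 280 and 120, 180 and 266, and 328 and 288 CPM, was called in no comparison. Without uninjured Wt replicate 1, 17 proteasome genes were higher.

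MG markers held both directions in the mutant. In Wt, injury raised 16 of 28 tested and lowered 2 (median 0.96), whereas in the mutant 8 were higher and 11 lower than in uninjured Wt (median 0.05), and 20 were lower than in injured Wt. For all genes the mutant gave 12.2% higher and 13.4% lower than uninjured Wt. Of the markers that injury raised in Wt, gfap, apoeb and glulb were not called between the mutant and uninjured Wt. The intermediate filament gene gfap, whose promoter drives the GFP used for sorting, had 196 and 159 CPM in uninjured Wt, 162 and 246 in the mutant and 837 and 705 in injured Wt (0.20 ± 0.23 against uninjured Wt, adjusted p = 0.58, and -1.92 ± 0.23 against injured Wt, adjusted p = 0.0012). The apolipoprotein gene apoeb had 2457 and 2082, 2140 and 2847, and 9997 and 9289 CPM (0.14 ± 0.20 and -1.95 ± 0.21), and the glutamine synthetase gene glulb had 229 and 136, 150 and 309, and 829 and 757 (0.33 ± 0.33 and -1.79 ± 0.34). In all 3 genes the mutant and uninjured libraries overlapped, and injured Wt lay far above both.

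Other MG markers were below uninjured Wt. The other glutamine synthetase identifier, named GLUL, had 7691 and 5624 CPM in uninjured Wt, 4878 and 4349 in injured Wt and 1210 and 2008 in the mutant (-2.05, adjusted p = 0.00052). The retinaldehyde-binding protein gene rlbp1a had 1364 and 1100, 1137 and 1141, and 331 and 386 CPM, and the carbonic anhydrase gene cahz had 965 and 697, 1252 and 1140, and 216 and 389. None of the 3 was called with injury in Wt, and all 3 were called lower in the mutant than in both Wt groups. Other markers rose above both: the fatty acid-binding protein gene fabp11a had 1.52 and 1.55 CPM in uninjured Wt, 16.2 and 21.6 in injured Wt and 46.2 and 51.9 in the mutant (5.0 ± 0.25, adjusted p = 6.8e-06), and rlbp1b had 51.0 and 24.0, 66.6 and 109, and 214 and 210 (2.5 ± 0.35). Both SLC1A3 identifiers, named after a glial glutamate transporter, were also higher than in uninjured Wt (3.24 ± 0.75 and 1.60 ± 0.45), where their levels were at most 1.73 CPM, with 1.72 to 5.83 CPM in the mutant. The call of the first was lost without mutant replicate 1 (adjusted p = 0.078). These genes moved in the libraries in which markers of pigmented cells and cones were also high. In the same libraries the sum of MG markers, set by its most abundant members, was low. The count of higher MG markers was 5 without mutant replicate 1.

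Genes of the actin cytoskeleton and adhesion were higher in part. Of 59 identifiers 58 were tested, and 33 were higher and 1 lower than in uninjured Wt (median 0.73), against 50 and 2 in injured Wt (median 1.73). The keratin gene krt18a.1 had 3.03 and 1.77 CPM in uninjured Wt, 84.9 and 70.4 in the mutant and 208 and 223 in injured Wt (5.01 ± 0.28, adjusted p = 8.8e-06). The actin cross-linker gene flna, at 62.7 and 45.0, 245 and 394, and 587 and 489 CPM, and the annexin identifier named ANXA2, at 0 and 0.828, 33.98 and 34.02, and 31.6 and 27.4, were not called different between the injured groups. In contrast, cadherin cdh2 (373 and 292, 422 and 553, and 946 and 988 CPM) and anxa13 (170 and 137, 156 and 194, and 497 and 475 CPM) were not called between the mutant and uninjured Wt (0.55 ± 0.20 and 0.19 ± 0.18). The lower member, the myosin light chain gene myl9b, was not called without uninjured Wt replicate 1 or mutant replicate 2, where the count of lower members was 0.

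Matrix and protease genes held both directions. Of 37 tested, 17 were higher and 5 lower in the mutant than in uninjured Wt (median 0.94), against 25 and 4 in injured Wt (median 1.44). The mutant shares of all genes were 12.2% and 13.4%. Besides mmp9, the metalloprotease gene adam8a had 0.556 and 0.791 CPM in uninjured Wt, 20.1 and 18.1 in the mutant and 66.9 and 79.6 in injured Wt (4.83). The fibrillar collagen gene col1a1a was near the level of injured Wt: it had 0.556 and 0.754, 25.1 and 14.2, and 14.0 and 8.36 CPM (4.90 ± 0.42), and was not called between the injured groups. The basement membrane collagen col18a1a, at 161 and 107, 138 and 178, and 477 and 546 CPM, was not called in the mutant (0.23 ± 0.22). The tenascin gene tnr and the collagen gene col15a1b were lower in both injured groups (-2.15 and -2.09 in the mutant). Markers of leukocytes and pigmented cells, some of which secrete matrix and proteases, were high in the same libraries. The count of lower members was 2 without uninjured Wt replicate 1.

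Cholesterol synthesis genes were lower in both injured groups. Of 24 tested genes, 15 were lower and 0 higher in the mutant (median -1.41), and 17 were lower and 0 higher in injured Wt (median -1.71), while 3 were higher and 1 lower in the mutant than in injured Wt. Across all genes, 13.4% were lower in the mutant and 17.4% in injured Wt than in uninjured Wt. Between mutant and injured Wt, 8.21% of all genes were higher and 12.2% lower. Lanosterol demethylase, cyp51, had 163 and 88.0 CPM in uninjured Wt, 8.11 and 6.37 in the mutant and 13.6 and 13.0 in injured Wt (-4.11 ± 0.31, adjusted p = 4.2e-05). The methylsterol oxidase gene msmo1 had 109 and 72.4, 6.10 and 9.55, and 14.8 and 12.3 CPM (-3.53 ± 0.29), and the identifier ENSDARG00000079946, named SQLE for squalene epoxidase, had 68.9 and 35.4, 1.504 and 2.327, and 2.18 and 2.96 (-4.77 ± 0.39). Both injured groups were far below uninjured Wt in these, and the difference between them was not called. The transcription factor gene of the pathway, srebf2, was lower too, at 150 and 112 CPM in uninjured Wt, 38.1 and 57.2 in the mutant and 30.1 and 37.1 in injured Wt. Of the early steps, fdps was not called in the mutant (-0.33 ± 0.17).

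Chromatin regulators were mostly lower with injury in Wt and mostly not called in the mutant. Of 40 genes of histone methylation and transcriptional corepressors, 2 were higher and 6 lower in the mutant than in uninjured Wt (median -0.15). The lower share was near the 13.4% of all genes, and the higher share was under the 12.2% of all genes. In injured Wt, 3 were higher and 37 lower (median -1.16), and 33 were higher in the mutant than in injured Wt. The corepressor gene ncor1 had 213 and 204 CPM in uninjured Wt, 175 and 171 in the mutant and 58.4 and 78.2 in injured Wt (-0.27 ± 0.18 against uninjured Wt and 1.34 ± 0.18 against injured Wt, adjusted p = 0.0017), and the H3K4 methyltransferase gene kmt2a had 82.6 and 56.8, 65.5 and 51.1, and 17.0 and 24.7 CPM. The H3K27 methyltransferase gene ezh2, which cycling cells express, went up instead, from 6.86 and 6.92 CPM to 22.8 and 18.3 in the mutant and 49.2 and 42.8 in injured Wt (1.58 ± 0.21). Neurons and photoreceptors express such regulators as well, and photoreceptor markers were high in the mutant and in uninjured Wt and low in injured Wt, the same order as for this list. The part of these cells was not tested. The count of lower members was 1 without uninjured Wt replicate 1, 2 without uninjured Wt replicate 2 and 0 without mutant replicate 2.

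Genes of mitochondrial energy metabolism and of the circadian clock held both directions in the mutant. Of 27 mitochondrial genes, 4 were higher and 5 lower in the mutant (median 0.22), near the 12.2% and 13.4% of all genes, against 8 and 19 in injured Wt (median -0.86). The mitochondrial phosphate carrier gene slc25a3a had 603 and 656 CPM in uninjured Wt, 848 and 802 in the mutant and 316 and 367 in injured Wt (0.39 ± 0.17 against uninjured Wt, adjusted p = 0.13), while the uncoupling protein gene ucp1 fell below both Wt groups, at 18.8 and 17.8, 2.82 and 3.48, and 6.94 and 6.46 CPM (-2.54 ± 0.26). Of 29 clock genes, 4 were higher and 8 lower in the mutant (median -0.20), against 1 and 14 in injured Wt (median -0.63). The share of higher clock genes was near the 12.2% of all genes. The period gene per2 fell in both injured groups, from 164 and 144 CPM to 71.8 and 44.9 in the mutant (-1.40 ± 0.24), and the cryptochrome gene cry3a, at 636 and 572, 555 and 272, and 109 and 121 CPM, was called only in Wt (-0.55 ± 0.28 in the mutant and -2.39 ± 0.30 in Wt, with the difference between them called at 1.84 ± 0.29). Without mutant replicate 1, cry3a was called lower in the mutant (-1.16, adjusted p = 0.0046). Leaving out uninjured Wt replicate 1 gave 2 higher mitochondrial and 1 higher clock gene, and leaving out uninjured Wt replicate 2 gave 7 and 8 higher and 3 and 4 lower. Without mutant replicate 2, 3 members of each list were lower.

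**Figure D5:**
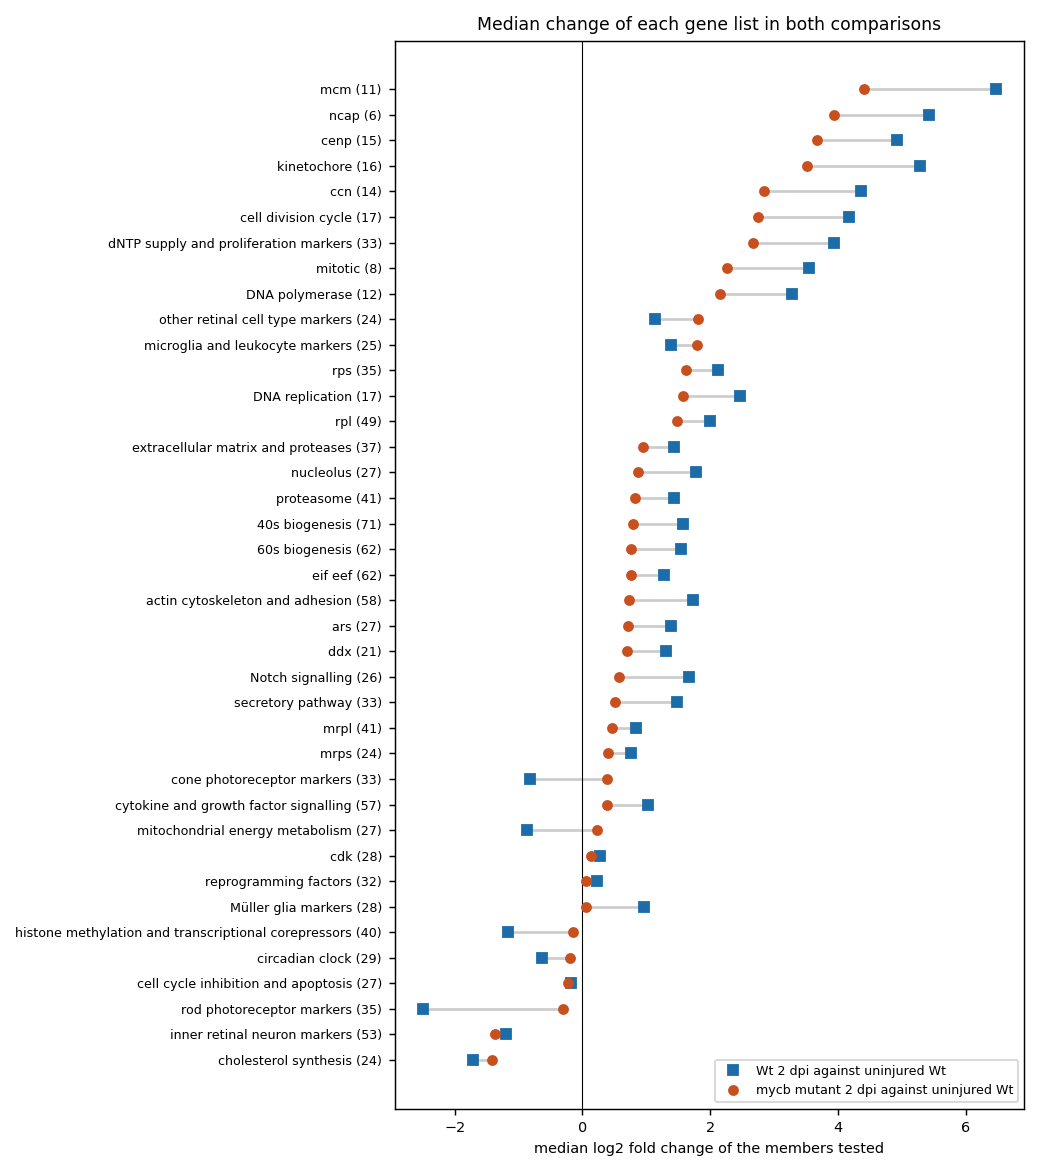
Median log2 fold change of the tested members of each gene list (number tested in parentheses) for the mycb mutant at 2 dpi against uninjured Wt (circles) and for injured Wt against uninjured Wt (squares), which share the uninjured libraries. The mcm median is 4.4 in the mutant and 6.47 in Wt, the cholesterol synthesis medians are -1.41 and -1.71, and the medians of rod markers are -0.31 and -2.5.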

How the data were processed

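RNA from FACS-purified GFP+ MG was sequenced in 6 libraries, 2 for each of 3 groups taken from the sample titles. The treatment label of the injured Wt libraries reads none. Their titles and source names were used instead. Raw counts, not normalized, were deposited by the authors for 23510 Ensembl identifiers. The methods name the zebrafish genome (GRCz11) for mapping, and the processing notes list GRCh38 beside it, with no role. The submitters' processing notes list cutadapt 2.3, FastQC 0.11.8, STAR 2.7.8a, RSEM 1.3.3 and DESeq2, without their roles. Neither the annotation release nor the strandedness of counting is given in the sources used here, so overlapping and antisense genes cannot be told apart.

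After filterByExpr with a minimum count of 10, 20329 genes remained. Library sizes were adjusted by TMM, and edgeR 4.0.16 in R 4.3.3 fitted one quasi-likelihood model of group to the 6 libraries, with 3 residual degrees of freedom. The common biological coefficient of variation was 0.396. With 2 libraries per group and 47088844 to 64353562 counts per library, the spread between libraries and not counting error sets the precision for most genes. Genes were called at a Benjamini-Hochberg adjusted p-value of at most 0.05 and a log2 fold change beyond 0.5, the thresholds in the study's methods. Their threshold on FPKM was left out because gene lengths were not used here. SE was taken as the log2 fold change, without its sign, over the square root of F. Fold changes against a group at 0 are lower bounds against 3 counts per library. Only the edgeR contrast of mutant against uninjured Wt was tried on simulated counts. There a set of genes smaller than that called here was changed, equally up and down. The pairing of names, the bounds and the lists were not simulated.

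Names came from the study's supplementary tables, of which 480 identifiers are printed and the rest were paired through values recomputed from the counts with DESeq2 1.42.0 (1182 of 1182 rows of the mycb table, with 429 of 429 printed identifiers recovered, and 404 of 436 rows of the mych table through 1 value and the symbol), and from a gene name table. Of 1219 value-paired genes with a symbol in that table, 1136 had the same one up to case and a final a, b or l. In all, 22010 identifiers were named, and 2831 share a name with another. Names in capitals are those of human orthologs.

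The genes named are the Myc family, the 15 largest increases and decreases among called genes with a name of their own, without overlap between groups and with at least 5 CPM in the higher group, the 2 largest in each direction without a name, for each list the 3 called members with the largest change and the 2 highest members not called, and a fixed set of 20 genes. Further members of the lists were named after their values were seen, and a few genes that the rule names are not reported here. The comparison, the members and the lists were chosen with earlier results of these data known. Alternatives were RLE size factors, library size only, TMM without 68 photoreceptor genes, no filter, a mean count of 300, other thresholds, glmTreat, DESeq2, the 4 compared libraries alone, a replicate block and leaving out each library.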

Additional observations from a re-analysis of the deposited data

How the results depend on the processing

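The counts of genes higher and lower in the injured mutant than in uninjured Wt (2477 and 2734) fell to 1638 higher with a log2 fold change above 1, and to 1456 higher and 1816 lower with glmTreat against 0.5. Leaving out each library in turn gave 1738 to 2764 higher and 1668 to 2762 lower genes, the fewest lower without mutant replicate 2. DESeq2 gave 3137 and 2880, no filter 3022 and 3231, and library size alone 1934 and 2918. Library size alone moved the median of all genes by -0.11, and leaving out uninjured Wt replicate 2 or mutant replicate 2 moved it by 0.18 and 0.14, so that the share of higher genes among those called was 39.9, 58.7 and 58.2%, against 47.5% as reported. Of 218 genes named by the rule (188 under a mean count of 300, of which 181), 181 to 218 kept their call under each alternative. None that was called reversed, and the direction of genes not called was not checked. Members named after their values were seen were not counted here unless the rule also named them.

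Same-numbered libraries did not deviate together (correlations of 0.05, 0.06 and -0.07 over 4364 genes), and the replicate number as a block (pairing) gave 2491 higher and 2780 lower genes. Threshold choices mattered most for families with small changes: with glmTreat, 25 of 71 genes of 40s biogenesis and 21 of 62 of 60s biogenesis were higher, and no mrpl gene. Genes with few counts, such as immune markers, have wide errors.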
